A study of Mus musculus with 16 samples.

Results

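The liver clears drugs and other foreign compounds, called xenobiotics, largely with cytochrome P450 enzymes of families 1 to 3, and the genes described here are 10 listed members of that system: the oxidising cytochromes Cyp1a2, Cyp2e1, Cyp3a11, Cyp3a13 and Cyp3a25, their electron donor Por, the heme synthesis enzyme Alas1, and the receptors Nr1i2, Nr1i3 and Ahr. They were taken by name, and a gene counted as measured when the array's gene table held a probe set with its symbol and no other. By that rule 8 of the 10 were measured, among 18820 genes tested, and each of the 8 had 1 such probe set. Por had none and is not analysed here. The only probe set listing Nr1i3 also lists the mitochondrial import gene Tomm40l, so Nr1i3 is not analysed here either. Cyp3a11 and Cyp3a25 have close paralogs (2 further probe sets list Cyp3a11 together with Cyp3a41a, Cyp3a41b or Cyp3a44, and 1 lists Cyp3a25 together with Cyp3a57 and Cyp3a59), so their signals may include RNA of those genes and are uncertain to that extent.

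The study set 24 h of fasting against normal feeding in the livers of mice lacking vanin-1 and of wild-type mice. Vnn1 encodes vanin-1, an enzyme that splits pantetheine into pantothenic acid and cysteamine. There were 4 groups of 4 arrays: fasted vanin-1 null mice (fasted KO), fasted wild-type mice (fasted WT), fed vanin-1 null mice (fed KO) and fed wild-type mice (fed WT). All were male C57Bl/6J mice of 14 to 16 weeks, housed singly on chow with lights on from 21:00 to 09:00, and the fasted mice went without food from 09:00 to 09:00. Knockout and wild type thus share strain, sex, diet and light cycle, and the labels do not say how the null allele was made or name a tissue to which the loss is limited. The labels do not say that each array is a separate animal, so the p-values rest on variation among samples that may be partly technical. Values are log2 microarray intensities, on which a difference of 1 is a doubling, and a gene was called when its limma p, adjusted by the Benjamini-Hochberg method over all genes tested, was below 0.05.

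A cytochrome P450 holds a heme group and takes electrons from cytochrome P450 reductase, the product of Por. Alas1 encodes the rate-limiting enzyme of heme synthesis in the liver, so it sets the heme available to these enzymes. Ahr encodes a receptor that binds planar aromatic compounds and switches on family 1 genes such as Cyp1a2. Nr1i2 encodes PXR, whose best known targets in mouse liver are family 3A genes, and Nr1i3 encodes CAR, best known for Cyp2b10.

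The knockout was visible on every array. Vnn1 lay at 4.26, 4.22, 3.67 and 3.77 on the fasted KO arrays, against 11.47, 11.24, 9.93 and 10.60 on the fasted WT arrays. It lay at 3.85, 3.84, 3.80 and 4.06 on the fed KO arrays, against 10.34, 8.74, 9.85 and 6.71 on the fed WT arrays, where fed WT 4 was the lowest. Mean levels of 8 hepatocyte markers lay between 13.11 and 13.25 on all 16 arrays, and those of 5 bile duct markers between 4.87 and 5.23. Within groups, arrays had pairwise correlations of 0.989 to 0.996. Fasted WT 4 had a mean of 7.82 over 7 pancreatic acinar markers, against 3.72 to 3.82 on the other arrays. Fed KO 4 had a mean of 12.05 over 17 acute phase genes, which hepatocytes switch on in inflammation, against 9.61 to 10.84 on the others. Some results are also given without 1 or more of fasted WT 4, fed KO 4 and fed WT 4, where stated. In whole liver, fewer cells of a type and less RNA per cell cannot be told apart.

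Fasting went with less Cyp1a2 RNA and more Alas1 RNA when both genotypes were averaged, by 1.67-fold and 1.59-fold. Smaller increases of about the same size were called for Nr1i2 (1.23-fold) and Cyp3a25 (1.22-fold). No call was made for Cyp2e1, Cyp3a11, Cyp3a13 or Ahr. These 4 calls among 8 genes stand beside 18.3% of all genes tested, 8.40% higher and 9.88% lower on fasting. The median log2 difference was 0.27 over the 8 and 0.02 over all genes.

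**Figure D1:**
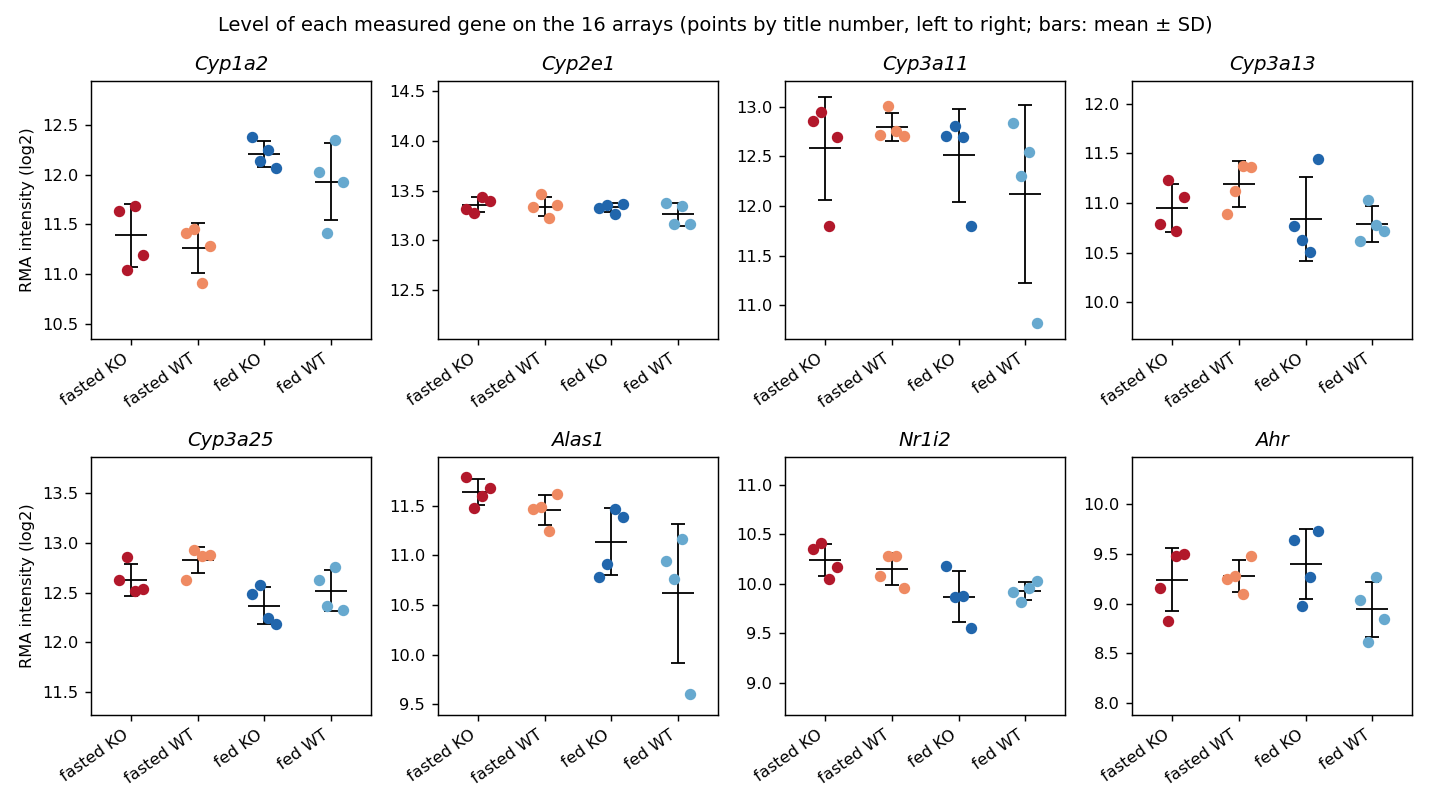
Log2 RMA intensity of the 8 measured genes, 1 panel a gene, with a point for each of 4 arrays in fasted KO, fasted WT, fed KO and fed WT liver and bars for the group mean ± SD. All panels span the same number of log2 units; Cyp2e1 hardly varies, Cyp1a2 lies lower in the fasted groups, and fed WT 4 lies far below its group for Cyp3a11 (10.82) and Alas1 (9.60).

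Cyp1a2, on chromosome 9 (GRCm38.p6, 57676937 to 57683655), encodes a hepatocyte enzyme that metabolises caffeine and aromatic amines. Its level was 11.63, 11.04, 11.69 and 11.19 on the fasted KO arrays, against 12.38, 12.14, 12.25 and 12.07 on the fed KO arrays. Every fasted KO array lay below every fed KO array. The difference was -0.82 (SE 0.18), 1.76-fold lower in fasted KO liver, with a limma adjusted p of 0.00796. In wild-type liver Cyp1a2 lay at 11.41, 11.45, 10.91 and 11.28 when fasted and at 12.03, 11.41, 12.35 and 11.93 when fed. The wild-type groups overlapped, since fed WT 2 at 11.41 was level with fasted WT 1 and below fasted WT 2. The fasted WT level was 1.59-fold lower than in fed WT liver (log2 -0.67, SE 0.18, limma adjusted p = 0.0327). That wild-type call ended without any 1 of fasted WT 3 and 4 or fed WT 1, 3 and 4, with log2 differences between -0.84 and -0.53 when any 1 of the 16 arrays was left out. Over both genotypes the log2 difference was -0.74 (SE 0.13, limma adjusted p = 0.000577).

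The fall of Cyp1a2 was not matched by a call for its receptor. Ahr, on chromosome 12, lay at 9.16, 8.82, 9.48 and 9.50 in fasted KO liver, against 9.64, 8.98, 9.27 and 9.73 in fed KO liver. It lay at 9.25, 9.28, 9.10 and 9.48 in fasted WT liver, against 9.04, 8.61, 9.27 and 8.84 in fed WT liver. The groups overlapped in both genotypes. The log2 difference was -0.17 in knockout liver (95% interval -0.54 to 0.21) and 0.34 in wild-type liver (-0.04 to 0.72), and over both genotypes 0.09 (-0.18 to 0.35; limma adjusted p = 0.702). Pericentral hepatocyte markers are genes of the zone around the central vein, where Cyp1a2 and Cyp2e1 are also strongest. Of 15, 1 rose and 4 fell on fasting over both genotypes, beside 8.40% higher and 9.88% lower of all genes. Without fasted KO 3, 8 were called among these 15 markers. Their mean level ranged from 8.84 to 9.40 in fasted KO and 9.17 to 9.34 in fasted WT liver, against 9.52 to 9.55 in fed KO and 9.26 to 9.52 in fed WT liver. The part of these markers or of Ahr in the Cyp1a2 result was not tested, and the activity of the Ahr receptor was not measured.

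The 250 bases before the annotated start of Cyp1a2 are shown because Ahr acts on family 1 genes through a short core, GCGTG. RefSeq gives them on the minus strand of GRCm38.p6, chr9:57683656-57683905, 5′ to 3′, and no letters are in capitals because none of the 4 motifs searched was found in this window.
Cyp1a2: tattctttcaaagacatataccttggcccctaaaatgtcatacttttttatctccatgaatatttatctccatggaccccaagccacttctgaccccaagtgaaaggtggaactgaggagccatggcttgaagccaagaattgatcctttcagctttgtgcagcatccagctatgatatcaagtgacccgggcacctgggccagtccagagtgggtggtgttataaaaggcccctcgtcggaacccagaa
The motifs were searched on both strands from 250 bases before to 50 after the start: GCGTG (the aryl hydrocarbon receptor core), AGGTCA (the site of a nuclear receptor monomer), TGTTTAC (forkhead) and TGACG (the cyclic AMP core). They occur in 32.4%, 16.3%, 3.65% and 20.8% of 32851 RefSeq windows of that length, in that order, and none overlaps another in the printed stretches. No match says only that these letters are not in the window. Of the listed genes, 9 have a window in the table, and Ahr has none.

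Alas1, also on chromosome 9 (GRCm38.p6, 106233455 to 106247954), lay at 11.79, 11.48, 11.60 and 11.68 in fasted KO liver, against 10.78, 10.91, 11.47 and 11.39 in fed KO liver. All 4 fasted KO arrays were above all 4 fed KO arrays, 11.48 and 11.47 being the closest, yet the difference of 0.50 (SE 0.25) was not called (limma adjusted p = 0.249). In fasted WT liver Alas1 lay at 11.47, 11.49, 11.25 and 11.62, against 10.94, 10.76, 11.17 and 9.60 in fed WT liver. These groups did not overlap either, and fed WT 4 was the lowest array by more than 1 log2 unit. Fasted WT liver had 1.79-fold more Alas1 RNA than fed WT liver (log2 0.84, SE 0.25, limma adjusted p = 0.0469).

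The spread that fed WT 4 adds to Alas1 enters every contrast, because 1 variance is fitted per gene. Without fed WT 4 the log2 difference for Alas1 was 0.50 in knockout liver (limma adjusted p = 0.0369) and 0.50 in wild-type liver (adjusted p = 0.075), so the call moved to the other genotype while the values became equal. The wild-type call for Alas1 also ended without any 1 of fasted WT 1 to 4, fasted KO 1 to 4, fed WT 2, fed KO 2 or fed KO 3. Over both genotypes the difference was 0.67 (SE 0.17, adjusted p = 0.0122), and 0.50 without fed WT 4 (adjusted p = 0.0035).

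Alas1 has 2 annotated starts in the table. The stretch before the first, on the minus strand at chr9:106247955-106248204 (RefSeq, GRCm38.p6), is shown because it holds the cyclic AMP core, which is bound by factors that glucagon signalling activates in fasting. The TGACG in capitals begins at position -186 from that start.
Alas1: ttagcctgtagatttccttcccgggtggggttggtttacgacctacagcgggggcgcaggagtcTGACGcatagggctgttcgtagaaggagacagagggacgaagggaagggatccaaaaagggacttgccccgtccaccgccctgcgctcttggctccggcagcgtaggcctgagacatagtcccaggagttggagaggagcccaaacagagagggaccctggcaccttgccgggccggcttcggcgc
The window of the second start holds no TGACG and has a GCGTG at position -222. The 2 windows overlap, and the same GCGTG lies at position 3 of the first, after its start. A match is a description and does not show that a factor binds there.

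Of the 3 measured genes of subfamily 3A, whose enzymes oxidise many drugs and steroids, 1 was called over both genotypes, although the 3 log2 differences were 0.28 for Cyp3a25, 0.37 for Cyp3a11 and 0.26 for Cyp3a13. Differences between these genes were not tested. Cyp3a25, on chromosome 5 (GRCm38.p6, 145977192 to 146009644), lay at 12.63, 12.86, 12.52 and 12.54 in fasted KO liver, against 12.49, 12.58, 12.24 and 12.18 in fed KO liver. It lay at 12.63, 12.93, 12.87 and 12.88 in fasted WT liver, against 12.63, 12.37, 12.76 and 12.32 in fed WT liver. The groups overlapped in both genotypes: fed KO 2 lay above fasted KO 3 and 4, and fed WT 3 above fasted WT 1. The log2 difference was 0.26 in knockout liver (SE 0.12, adjusted p = 0.199) and 0.31 in wild-type liver (SE 0.12, adjusted p = 0.134). Neither was called alone, while their mean, 0.28 (SE 0.08), was called with an adjusted p of 0.0238 from limma. This call for Cyp3a25 ended without any 1 of fasted KO 2, fed WT 4 or fed KO 3, with differences of 0.25 to 0.32 over all 16 single omissions.

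Cyp3a11, on the same chromosome (145854607 to 145879854) and the major subfamily 3A enzyme of mouse liver, lay at 12.86, 12.95, 11.80 and 12.70 in fasted KO liver, against 12.71, 12.81, 12.70 and 11.80 in fed KO liver. In fasted WT liver it lay at 12.72, 13.01, 12.76 and 12.71, against 12.84, 12.30, 12.54 and 10.82 in fed WT liver. In 3 groups a single array lay far below the rest: fasted KO 3, fed KO 4 and fed WT 4. The Cyp3a11 difference was 0.07 in knockout liver (95% interval -0.67 to 0.81), with -0.17 without fed KO 4 and 0.33 without fasted KO 3. It was 0.68 in wild-type liver (-0.06 to 1.41, adjusted p = 0.285), and 0.24 without fed WT 4. Over both genotypes it was 0.37 (SE 0.25, adjusted p = 0.338), and 0.15 without fed WT 4. No Cyp3a11 call was made with or without these arrays.

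Cyp3a13, also on chromosome 5 (137892933 to 137925610), lay at 10.79, 11.23, 10.72 and 11.06 in fasted KO liver, against 10.77, 10.63, 10.51 and 11.44 in fed KO liver. It lay at 10.89, 11.12, 11.37 and 11.36 in fasted WT liver, against 10.62, 11.03, 10.78 and 10.72 in fed WT liver. The highest fed KO array was fed KO 4, the one with the high acute phase genes. Over both genotypes the Cyp3a13 difference was 0.26 (SE 0.12, adjusted p = 0.173) and was not called, but without fed KO 4 it was 0.36 and was called (adjusted p = 0.0169). On fed KO 4, Cyp1a2, Cyp3a11, Cyp3a25 and Nr1i2 were the lowest of their group, and Cyp2e1, Cyp3a13 and Ahr the highest. The part of the acute phase genes in these values was not tested.

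The 250 bases before Cyp3a11 and before the first start of Cyp3a25 are shown because PXR, a nuclear receptor, acts on family 3A genes through repeats of letters close to AGGTCA. Capitals mark AGGTCA, its reverse complement TGACCT and the forkhead letters TGTTTAC. Both stretches are from RefSeq on the minus strand of GRCm38.p6, at chr5:145879855-145880104 and chr5:146009619-146009868.
Cyp3a11: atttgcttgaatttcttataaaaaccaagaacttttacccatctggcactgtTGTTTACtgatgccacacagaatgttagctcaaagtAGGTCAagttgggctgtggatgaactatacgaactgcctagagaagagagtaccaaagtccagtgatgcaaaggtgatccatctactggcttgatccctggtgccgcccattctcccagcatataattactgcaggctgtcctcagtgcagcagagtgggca
Cyp3a25: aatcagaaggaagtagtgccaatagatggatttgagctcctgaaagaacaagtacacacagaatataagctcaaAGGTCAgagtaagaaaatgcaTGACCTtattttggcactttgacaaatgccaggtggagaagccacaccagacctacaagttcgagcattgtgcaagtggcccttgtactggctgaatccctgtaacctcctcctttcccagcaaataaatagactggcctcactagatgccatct
Cyp3a11 has AGGTCA at position -162 and TGTTTAC at -198. Cyp3a25 has AGGTCA at -176 and TGACCT at -155. None of the 4 motifs was found in the windows of Cyp2e1, Cyp3a13, Nr1i2 or Nr1i3.

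Nr1i2, on chromosome 16 (GRCm38.p6, 38248349 to 38294849), lay at 10.35, 10.41, 10.05 and 10.17 in fasted KO liver, against 10.18, 9.87, 9.88 and 9.55 in fed KO liver. It lay at 10.08, 10.28, 10.28 and 9.96 in fasted WT liver, against 9.92, 9.82, 9.96 and 10.03 in fed WT liver. The groups overlapped in both genotypes: fed KO 1 lay among the fasted KO arrays, and fed WT 4 above fasted WT 4. The log2 difference of 0.37 in knockout liver (SE 0.12) had a limma adjusted p of 0.0595, and that of 0.22 in wild-type liver (SE 0.12) one of 0.314. The mean of both, 0.30 (SE 0.08), was called (adjusted p = 0.0204), but not without the 3 arrays whose names end in 2, fasted KO 1, fed WT 2 and fed KO 4 (0.21, adjusted p = 0.119). Without fasted KO 3 or without fed KO 1 the knockout difference for Nr1i2 was called as well, at 0.44 and 0.48 (adjusted p = 0.0418 and 0.0171).

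Cyp2e1, on chromosome 7 (GRCm38.p6, 140763819 to 140774990), encodes the enzyme that oxidises ethanol, acetone and paracetamol. It was the steadiest of the 8, at 13.31, 13.27, 13.44 and 13.40 in fasted KO liver and 13.33, 13.47, 13.22 and 13.36 in fasted WT liver. Fed KO liver had 13.32, 13.36, 13.26 and 13.37, and fed WT liver 13.38, 13.16, 13.35 and 13.16. The Cyp2e1 ratio of fasted to fed liver over both genotypes had a 95% interval of 0.959 to 1.12 (log2 0.05, limma adjusted p = 0.547). Its values lie near the top of the array's range, whose highest value is 14.19, and a bright probe set may show less than the true change. The Cyp2e1 protein is known to be regulated after transcription in fasting, and protein was not measured.

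**Figure D2:**
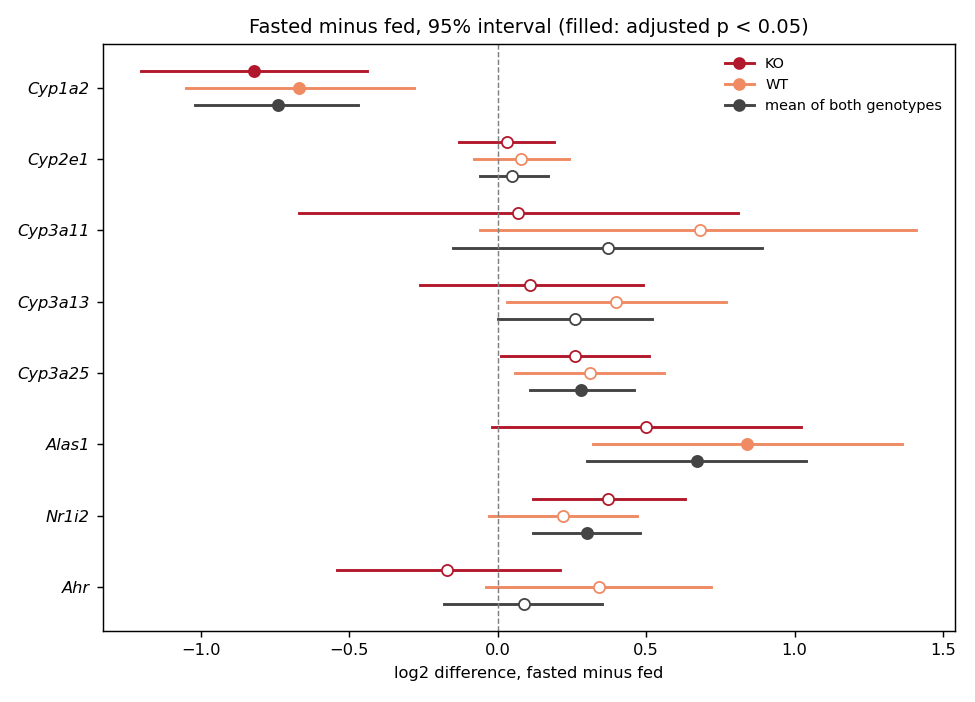
Log2 difference, fasted minus fed, of each measured gene with its 95% interval, for knockout liver, wild-type liver and the mean of both genotypes (4 arrays a group). Filled points have an adjusted p below 0.05: Cyp1a2 in all 3 comparisons, Alas1 in wild type and over both genotypes, and Cyp3a25 and Nr1i2 over both genotypes.

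In fasted KO against fed KO liver 1 of the 8 genes was called, Cyp1a2, and in fasted WT against fed WT liver 2, Cyp1a2 and Alas1. Of all genes, 9.42% were called in knockout and 7.61% in wild-type liver. Over all genes, 629 were called higher and 803 lower in wild-type liver, or 1014 and 542 with arrays centred on their medians. Over both genotypes 1580 were called higher and 1860 lower, or 2426 and 1397 with that centring. No called member changed direction under it, but Cyp1a2 in wild-type liver was no longer called. The fasting differences of the 2 genotypes share no arrays, and a call in 1 genotype does not show that they differ.

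That difference itself was tested, as the fasting response in knockout minus that in wild type, and no member was called (0% of all genes were). By limma, 0 of the 8 had an unadjusted p below 0.05, against 924 of all genes. The difference of the responses was -0.15 for Cyp1a2 (95% interval -0.69 to 0.39) and -0.34 for Alas1 (-1.08 to 0.40). For Ahr it was -0.50 (-1.04 to 0.03, adjusted p = 0.948). The intervals are wide: for Cyp3a11 the response in knockout could be 0.319 to 1.35 times that in wild type.

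Loss of vanin-1 went with no called change in the 8 genes, fasted or fed. In fasted KO against fasted WT liver 0.0159% of all genes were called, and 0 of the 8 (0 at an unadjusted limma p below 0.05, against 1033 genes). In fed KO against fed WT liver 0.00531% were called, Vnn1 alone, and 0 of the 8 (1, Ahr, at an unadjusted limma p below 0.05, against 1084 genes). Over both feeding states 0.00531% were called, again Vnn1 alone, and 0 of the 8 (0 at an unadjusted limma p below 0.05, against 1161 genes). In fasted liver the 95% interval of the KO to WT ratio was 0.835 to 1.42 for Cyp1a2 and 0.901 to 1.13 for Cyp2e1. For Cyp3a11 that ratio could lie between 0.514 and 1.43, and for Alas1 between 0.789 and 1.63.

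Among fed livers, Ahr had a log2 difference of 0.47 between KO and WT (95% interval 0.09 to 0.84). Its limma p of 0.0191 before adjustment became an adjusted p of 0.855. Fed KO liver had 9.64, 8.98, 9.27 and 9.73, and fed WT liver 9.04, 8.61, 9.27 and 8.84. Alas1 had a fed KO minus fed WT difference of 0.52 (95% interval ending at 1.04, adjusted p = 0.859), and 0.18 without fed WT 4.

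**Figure D3:**
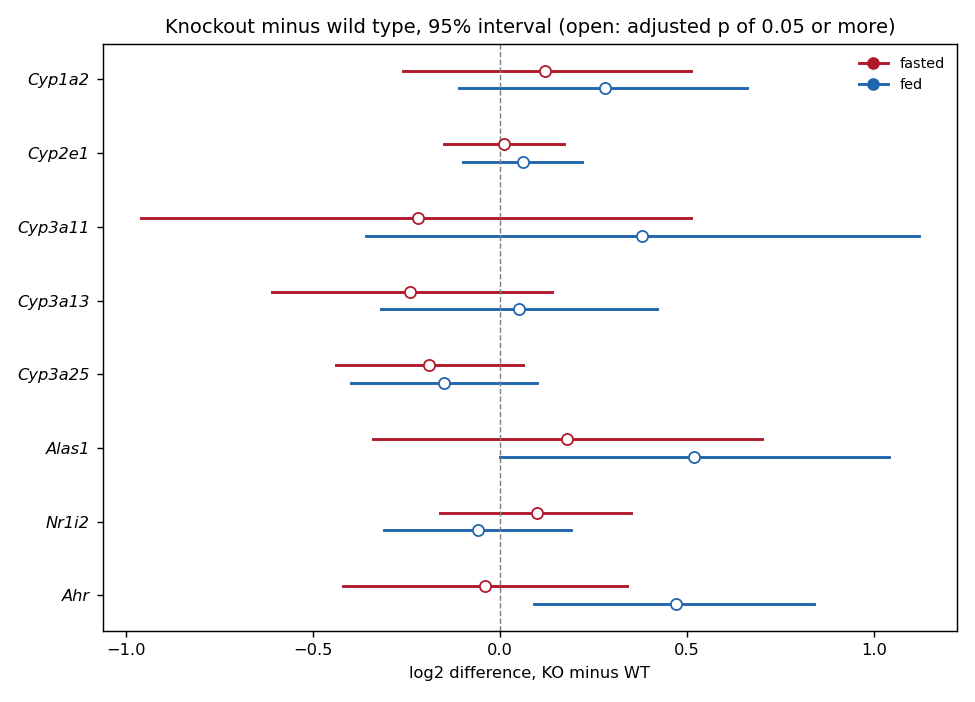
Log2 difference, knockout minus wild type, of each measured gene with its 95% interval, in fasted and in fed liver (4 arrays a group). All points are open, since no adjusted p is below 0.05, and of the intervals only that of Ahr in fed liver, 0.09 to 0.84, lies clear of 0.

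The other genes of the system were read from lists, chosen with earlier results of these data known, over both genotypes. Beside their counts stand the shares of all genes tested, 8.40% called higher and 9.88% called lower. Of 47 further measured cytochromes of families 1 to 3, 4 rose and 11 fell on fasting, with a median log2 difference of 0.01. Cyp2c70, which in mice makes muricholic acids, fell 7.41-fold, to 9.38, 9.24, 9.68 and 8.76 in fasted KO and 9.44, 10.06, 9.24 and 9.72 in fasted WT liver, against 12.34, 12.14, 12.20 and 12.64 in fed KO and 12.06, 12.26, 12.41 and 12.60 in fed WT liver (limma adjusted p = 3.01e-09). Cyp2r1, a vitamin D 25-hydroxylase, fell 2.38-fold (limma adjusted p = 3.49e-06), and Cyp2c55 fell 2.62-fold (limma adjusted p = 1.51e-05). The fasted mean of Cyp2c55, 4.31, and its fed mean, 5.7, both lay under the highest array median of all genes, 5.83. Cyp2c38 rose 2.35-fold (adjusted p = 0.000181) and Cyp2c39 2.30-fold (adjusted p = 0.00277), although both belong to a cluster of close paralogs. Cyp2b10, the usual read-out of CAR, lay at 7.34, 6.74, 6.17 and 8.21 in fasted KO and 5.54, 6.37, 4.70 and 7.70 in fasted WT liver, against 6.52, 4.41, 5.88 and 4.57 in fed KO and 6.34, 5.14, 5.26 and 4.35 in fed WT liver. Those groups overlapped. The estimated rise of Cyp2b10 was 2.44-fold (log2 1.29, limma adjusted p = 0.0477), with log2 differences of 0.89 to 1.52 over 32 other settings. Its fed mean, 5.31, lay under the highest array median, so the true fold may exceed this estimate. The rise was not called under 20 of these settings. Among them was the omission of fasted WT 2 or 4, or fasted KO 1, 2 or 4. Omission of fed WT 2, 3 or 4, or of fed KO 2, 3 or 4, also ended the call. Without fed WT 4 and fed KO 4, 2 of the 47 cytochromes were called higher and 10 lower.

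Of 25 measured electron partners and genes of heme metabolism, 6 rose and 10 fell (median -0.14). Next to Alas1, Cpox, the coproporphyrinogen oxidase of heme synthesis, rose 1.68-fold (limma adjusted p = 0.000358), and Clpx, a mitochondrial protease partner that acts on ALAS proteins, rose 1.85-fold (adjusted p = 0.000266). Flvcr2, a membrane transporter, rose 2.22-fold (adjusted p = 9.68e-05). Alas2, the erythroid form of the enzyme, fell 1.76-fold (adjusted p = 1.24e-06). Of proteins that carry electrons, Fdx1, a mitochondrial ferredoxin, fell 1.81-fold (adjusted p = 9.54e-06) and Cyb5b, an outer mitochondrial membrane cytochrome b5, fell 1.80-fold (adjusted p = 2.67e-05).

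Of 27 receptor partners and liver factors, 5 rose and 4 fell (median 0.03). Gadd45b, a stress-induced gene that acts as a coactivator of CAR in mice, rose 8.52-fold (limma adjusted p = 1.87e-08). Its fed mean of 5.34 lay under the highest array median. Ppargc1a, whose product PGC-1α is a fasting coactivator that acts on Alas1 in mouse liver, lay at 8.64, 9.55, 8.02 and 9.06 in fasted KO and 9.46, 8.86, 9.84 and 9.79 in fasted WT liver, against 8.49, 7.85, 7.85 and 7.73 in fed KO and 7.97, 8.12, 8.11 and 7.85 in fed WT liver. It rose 2.23-fold over both genotypes (adjusted p = 0.000353), without overlap in wild-type liver and with fasted KO 3 among the fed arrays in knockout liver. Cebpb, a liver transcription factor of stress and fasting, rose 1.63-fold (adjusted p = 0.00337). Onecut1, a liver-enriched factor also called HNF6, fell 4.29-fold (adjusted p = 1.68e-05). Cebpa, a factor of the mature hepatocyte, fell 1.59-fold (adjusted p = 4.05e-06), and Foxa2, a forkhead factor, 1.51-fold (adjusted p = 0.0116).

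Of 36 other phase 1 enzymes 7 rose and 12 fell (median -0.13). Fmo2, a flavin monooxygenase, rose 2.32-fold, Aldh3a2, a fatty aldehyde dehydrogenase, 1.72-fold, and Ephx2, the soluble epoxide hydrolase, 1.54-fold (limma adjusted p = 0.000339, 0.0143 and 9.93e-06). Adh4, an alcohol dehydrogenase, fell 2.21-fold, Aox3, an aldehyde oxidase, 2.05-fold, and Aldh1b1, a mitochondrial aldehyde dehydrogenase, 1.89-fold (adjusted p = 1.23e-05, 0.000101 and 0.00649). Aldh3a2 was not called without the 3 arrays whose names end in 2.

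Of 42 conjugating enzymes, which attach glutathione, sulfate or sugar acids to oxidised compounds, 2 rose and 19 fell (median -0.26, the lowest of these 5 lists). Among the glutathione transferases Gstm3 fell 2.11-fold and Gstm6 2.07-fold (limma adjusted p = 1.30e-05 and 1.15e-05), while Gstt2 rose 1.54-fold and Gsto1 1.27-fold (adjusted p = 0.00293 and 0.0198). The Gstm genes are close paralogs and their probe sets may share signal. Sult1c2, a sulfotransferase, fell 1.81-fold (limma adjusted p = 0.000358), its fasted mean of 5.6 lying under the highest array median. Without fed WT 4 and fed KO 4, 2 conjugating enzymes were called higher and 19 lower. No gene of these 5 lists was called in any of the 4 comparisons that involve genotype.

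Markers of zones and of other cell types were read beside these lists over both genotypes. The shares of all genes, 8.40% called higher and 9.88% lower, stand beside these counts and those of the acute phase genes. Of the pericentral markers, Lhpp rose 1.45-fold (limma adjusted p = 0.00732). Rgn (2.20-fold), Aldh1b1 (1.89-fold, also counted among the phase 1 enzymes) and the Wnt regulator Rnf43 (1.79-fold) fell most (adjusted p = 3.31e-06, 0.00649 and 0.000131). Of 11 periportal markers 3 rose: the lipid droplet gene Hsd17b13 (1.41-fold, adjusted p = 1.96e-05), the gluconeogenic enzyme gene Pck1 (1.33-fold, adjusted p = 0.000508) and the urea cycle gene Arg1 (log2 0.33, adjusted p = 0.0347). The periportal markers that fell were the cadherin gene Cdh1 (1.72-fold, adjusted p = 0.00816) and the urate oxidase gene Uox (1.27-fold, adjusted p = 0.00314). Lhpp and Cdh1 were not called without the 3 arrays whose names end in 2. Arg1 was not called under 15 of 32 settings, among them the omission of any 1 of fasted KO 1, 2 or 4, fasted WT 2, 3 or 4, fed KO 2 or 3, or fed WT 1 or 3. Of 8 hepatocyte markers only Ttr was called, 1.13-fold lower (adjusted p = 0.0298), and not under 12 of 32 settings, among them the omission of any 1 of fasted KO 1 or 4, fasted WT 3 or 4, fed KO 1 or 2, or fed WT 3 or 4.

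Of 17 acute phase genes 5 fell and 0 rose, led by Steap4 (3.06-fold), Saa4 (2.01-fold) and Socs3 (1.80-fold; adjusted p = 0.000594, 0.000178 and 0.0057), with a median log2 difference of -0.39, or -0.26 without fed WT 4 and fed KO 4, where 3 fell. Socs3 differed by -1.40 in knockout liver (limma adjusted p = 0.0037) and by -0.30 in wild-type liver (adjusted p = 0.595, not called). For the difference of the 2 responses, 0 of the 17 were called. Of 10 markers of Kupffer cells, the liver's resident macrophages, 4 fell, among them Adgre1 (1.57-fold, adjusted p = 0.0156), Cd5l (1.34-fold, adjusted p = 0.0448) and Csf1r (log2 -0.38, adjusted p = 0.0255). Adgre1 was not called without the 3 arrays whose names end in 2, Cd5l under 21 of 32 settings, among them the omission of any 1 of fasted KO 1, 3 or 4, fasted WT 1, 2 or 4, fed KO 1, 3 or 4, or fed WT 1 or 4, and Csf1r under 9, among them that of fasted KO 1 or 4, fed KO 3, or fed WT 1 or 4. The Kupffer list had means from 7.97 to 8.73 in fasted KO and 8.19 to 8.72 in fasted WT liver, against 8.37 to 8.66 in fed KO and 8.51 to 9.21 in fed WT liver. The count of called Kupffer markers varied from 1 to 7 with 1 array left out. It was 7 without fasted KO 2. It was 1 or 2 without any 1 of fasted KO 1 or 4 or fasted WT 1, 2 or 4. The same held for fed KO 1, 3 or 4 and for fed WT 1 or 4. Without fed WT 4, and again without both fed WT 4 and fed KO 4, 1 called Kupffer marker rose and 1 fell. Without both fasted WT 4 and fed KO 4, 0 were called. Of 9 markers of stellate cells 4 fell, among them the collagen gene Col3a1 (1.59-fold, adjusted p = 4.28e-05), the retinol-esterifying Lrat (1.43-fold, adjusted p = 0.00176) and the receptor gene Pdgfrb (1.36-fold, adjusted p = 0.0149), the last not called without the 3 arrays whose names end in 2. The stellate list had means of 7.57 to 7.64 in fasted KO and 7.58 to 7.86 in fasted WT liver, against 7.82 to 8.02 in fed KO and 7.77 to 8.08 in fed WT liver. Without fed WT 4 and fed KO 4, 2 stellate markers fell. By limma 0 of 9 sinusoidal endothelial, 5 bile duct, 7 pancreatic acinar and 9 leukocyte markers were called, with 1, 1, 0 and 1 at an unadjusted p below 0.05. The part of these cell types in the values of the xenobiotic genes was not tested.

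**Figure D4:**
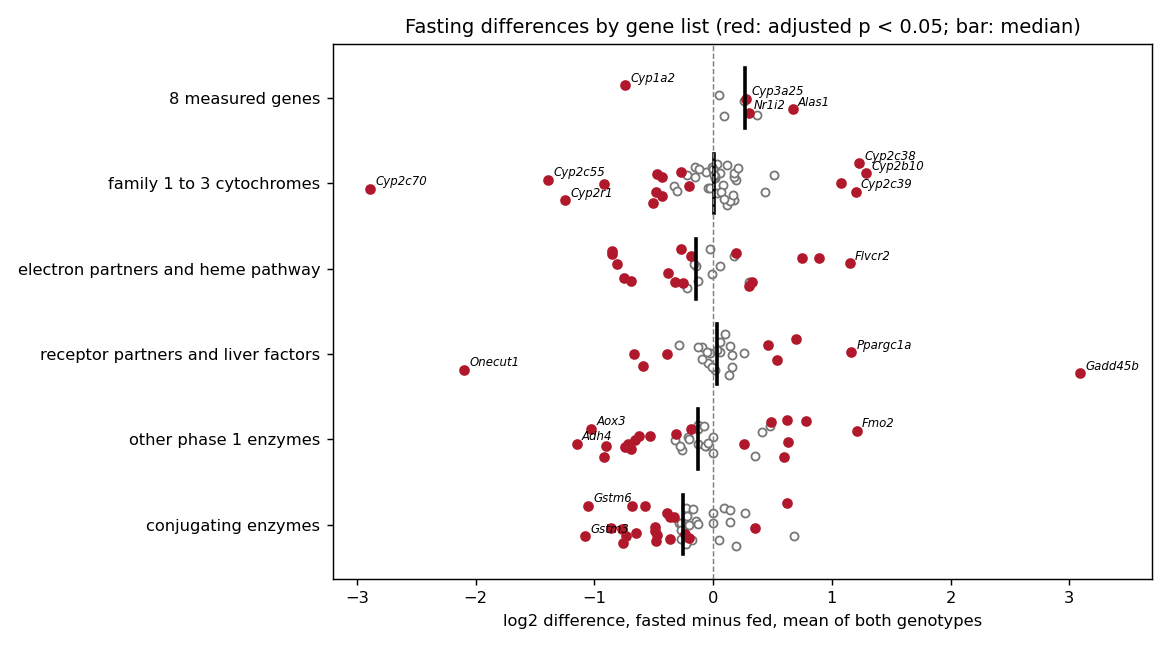
Log2 difference, fasted minus fed as the mean of both genotypes, with 1 point a gene, for the 8 measured genes and 5 lists of other genes of xenobiotic metabolism; red points have an adjusted p below 0.05, the black bar is the list's median, and the height within a row has no meaning. Cyp2c70, Onecut1 and Gadd45b lie farthest from 0, and most red points of the conjugating enzymes lie left of it.

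The genes whose pattern over the 16 arrays was most like that of the 4 members called over both genotypes were found by the root mean square difference of centred log2 values, among genes above the median level. For Cyp1a2, whose own root mean square deviation was 0.461, they were Slc25a37 (0.202), Acsm5 (0.211) and Ulk2 (0.212). For Alas1 (0.522) they were Miga2 (0.226), Cpox (0.232) and H1f2 (0.253). Another heme synthesis gene was thus among its 3 nearest, though Alas1 and Cpox were both lowest on fed WT 4, at 9.60 and 9.08. The part of that array in this likeness was not tested. For Nr1i2 (0.218) they were Pigx (0.099), Cd300lg (0.127) and Mlxip (0.128). For Cyp3a25 (0.224) they were Ctsf (0.113), Sat2 (0.129) and Tspo (0.131). These likenesses describe 16 arrays and carry no test.

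Across arrays, the low Cyp3a11 and Alas1 of fed WT 4 went with a low Cpox on that array, 9.08 against 9.77 to 10.19 on fed WT 1 to 3, and with its low Vnn1. Cyp1a2 on fed WT 4 was 11.93, within the range of its group. The array names also carry a plate position, with columns 5 and 7 each holding 2 arrays of every group. Rows A and B hold fasted WT, C and D fasted KO, E and F fed WT, and G and H fed KO. Plate row thus cannot be told apart from feeding or genotype. Cyp1a2 differed between fasted and fed liver by -0.84 in column 5 and by -0.65 in column 7, as means of both genotypes. Alas1 differed by 0.44 in column 5 and 0.90 in column 7, Nr1i2 by 0.20 and 0.39, and Cyp3a25 by 0.13 and 0.44. Cyp3a11 differed by -0.16 in column 5, with fasted KO 3, and by 0.91 in column 7, with fed WT 4 and fed KO 4. With the column as a block all 7 calls made for members of the system were kept.

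**Figure D5:**
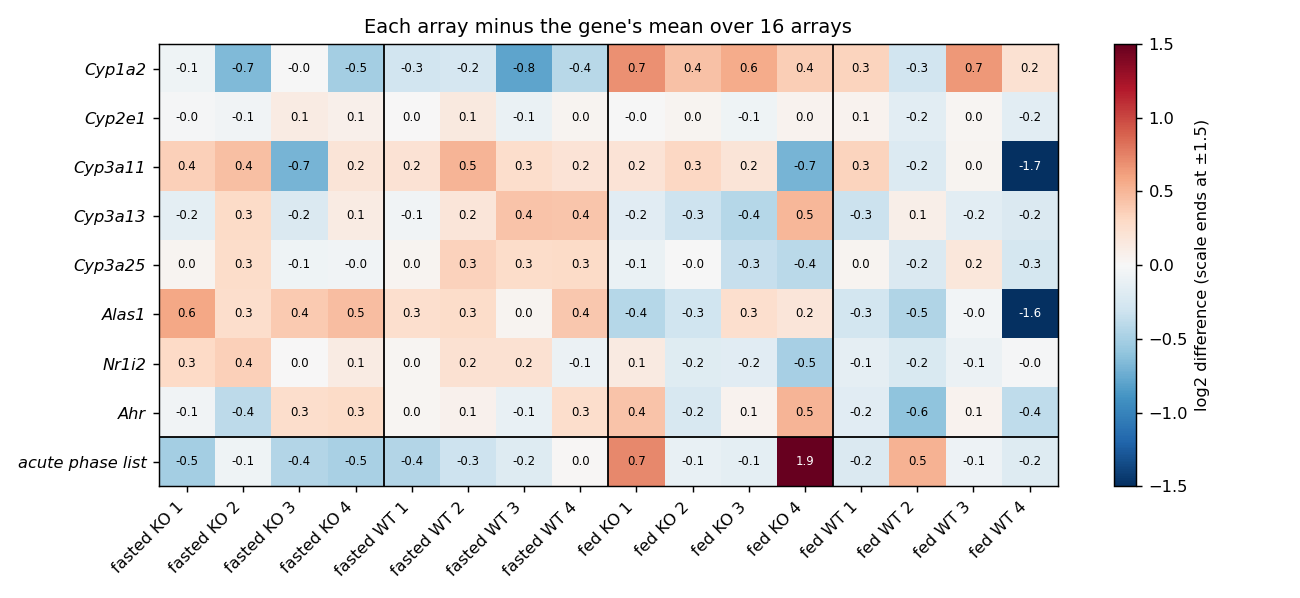
Log2 level of each measured gene on each array minus that gene's mean over the 16 arrays, with the mean of 17 acute phase genes in the bottom row; arrays run from fasted KO to fed WT, and colour ends at ±1.5. Cyp1a2 is low on most fasted arrays, but fasted KO 1 and 3 (levels 11.63 and 11.69) lie close to its mean and above fed WT 2 (11.41). Fed WT 4 is low for Cyp3a11 and Alas1, and fed KO 4 has the highest acute phase mean.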

How the data were processed

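Liver RNA (100 ng a sample) was labelled with the Ambion WT kit and hybridised to 16 Affymetrix whole-transcript arrays, per the labels' protocols. The deposited log2 values of 35556 probe sets were made by the authors with RMA, per the submitters' processing notes. No genome build is named for them. Of these probe sets 21218 had 1 gene symbol, 1881 several and 12457 none. Each gene was represented by its probe set of highest mean. limma 3.58.1 in R 4.3.3 fitted 1 mean per group over 16 arrays, with 12 residual degrees of freedom and a prior worth 4.66, and adjusted p-values over 18820 genes in each of 7 contrasts. The fit was tested on simulated data. Array medians lay between 5.19 and 5.29, and the number of arrays limits the precision. Members and lists were chosen with earlier results of these data known. All members are named. From each list, up to 3 called genes in each direction with the largest fasting difference over both genotypes were named. Where the lower mean was under the highest array median over genes, 5.83, the true fold may exceed the estimate given. Alternatives numbered 33, 1 of them added after the data were seen. Sequences are from RefSeq, GRCm38.p6.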

Additional observations from a re-analysis of the deposited data

Results flagged for a closer look

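Of 36 groups of 4 arrays examined, 2 held an array far from the other 3, and chance flags about 1 group in 20. Both concern Cyp3a11. It was lowest on fed KO 4, at 11.80 against 12.70 to 12.81 on the other fed KO arrays. It was highest on fasted WT 2, at 13.01 against 12.71 to 12.76 on the other fasted WT arrays.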

How the results depend on the processing

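The 7 calls made for members were recomputed under 33 settings, fewer where a setting leaves out a contrast, which gave 227 recomputations. Of these 183 kept the call and 44 lost it, and 0 reversed. Cyp1a2 kept its call in knockout liver (limma adjusted p of 0.00285 to 0.0309) and over both genotypes under every setting. In wild-type liver the 2 calls became 1 with median centring, the robust prior, array weights or without the 3 arrays whose names end in 2, and 0 with every probe set, with only the groups compared, at a threshold of 0.01, without both fasted WT 4 and fed KO 4, or without both fed WT 4 and fed KO 4 (added after the data were seen). Single omissions gave 0 to 2 calls in wild-type liver. In knockout liver the 1 call became 2 with either filter on low levels, where Nr1i2 joined (adjusted p = 0.0476 and 0.0373), and without both fed WT 4 and fed KO 4, where Alas1 joined (adjusted p = 0.0241). Single omissions gave 1 to 2 there. Over both genotypes the 4 calls became 1 at a threshold of 0.01 and 2 when at least 1.5-fold was required. Comparisons of genotype and of the responses had 0 member calls under every setting. Of 49 uncalled pairs of member and contrast, 14 changed sign under at least 1 setting. Whether title numbers pair the samples is not stated in the labels. Deviations from the group means correlated above 0.1 in 6 of 24 same-number pairs (-0.32 to 0.40), and 4 of 16 arrays matched their own number best. These correlations cannot exclude pairing, since paired samples need not correlate in this way. With the number as a replicate block 1 member was called in wild-type liver, since Alas1 had an adjusted p of 0.0691. The cause of these changes was not tested.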
